A study of Mus musculus with 24 samples.

Results

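Glycolysis, lactate and pyruvate handling was followed here as 32 genes, taken by symbol from 2 gene count tables of cultured mouse lung adenocarcinoma cells. All 32 had a row in both tables, of 38937 genes in the table of the short hairpin RNA (shRNA) experiment and 39310 genes in the table of the small interfering RNA (siRNA) experiment. The genes cover glucose entry, the steps from glucose to pyruvate, the enzymes that set fructose 2,6-bisphosphate, and the exchange of pyruvate with lactate and its transport across the cell membrane. They also cover the entry of pyruvate into mitochondria, its oxidation there and the kinases that control that oxidation.

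The tumour cells had been isolated from mouse lung by sorting and were then cultured and treated. S/S cells carry the eIF2α that can be phosphorylated in the integrated stress response, the pathway by which stressed cells slow translation and raise the transcription factor ATF4. A/A cells carry the form of eIF2α in which the phosphorylated serine is alanine. The shRNA experiment had S/S cells with a control hairpin (S/S shControl) and S/S cells with a hairpin against Atf4 (S/S shAtf4). The siRNA experiment had S/S and A/A cells, each with control siRNA (siControl) or with siRNA against Chchd10 (siChchd10), which encodes a small protein of the mitochondrial intermembrane space. Each of the 6 groups had 4 libraries of polyadenylated RNA, 24 in all. Nothing in the labels tells whether the 4 replicates of a group were grown or taken from mice separately, so p-values measure only the spread between these libraries. They give no further driver alleles, ages or culture conditions, and the genotype tag of the A/A siControl libraries reads WT although their titles give A/A, which was used here.

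Glycolysis splits glucose into pyruvate in the cytosol. Pyruvate is then either reduced to lactate by lactate dehydrogenase and exported with a proton by monocarboxylate transporters, or carried into mitochondria by the MPC1 and MPC2 carrier and oxidised by the pyruvate dehydrogenase (PDH) complex. PDH kinases (PDK1 to PDK4) phosphorylate and inhibit that complex, and many tumours are known for making lactate while oxygen is present. Several of the genes, among them those for GLUT1, LDHA, PGK1, PDK1 and the lactate exporter MCT4, are known targets of hypoxia-inducible factors.

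Libraries held 14067290 to 70932804 counts in the shRNA table and 42863650 to 75409451 in the siRNA table. Levels are given as CPM, which are counts scaled to 1000000 per library, with library sizes scaled by TMM, and library values are listed in the order of replicate numbers. The target Chchd10 stood at 38.1 to 46.00 CPM in S/S siControl and 5.34 to 6.82 in S/S siChchd10, and at 7.97 to 10.2 in A/A siControl and 1.37 to 2.15 in A/A siChchd10. Atf4 stood at 498 to 835 CPM in S/S shControl and 225 to 319 in S/S shAtf4. In the siRNA table Atf4 was at 473 to 555 CPM in S/S siControl and 424 to 478 in S/S siChchd10. It was at 151 to 185 in A/A siControl and 122 to 133 in A/A siChchd10. Epithelial markers summed to 3931 to 7619 CPM over the 24 libraries, leukocyte markers to 1.90 to 4.96, fibroblast markers to 2.17 to 18.3 and endothelial markers to 0.450 to 2.27. The alveolar type 2 list of 7 genes summed to 0.473 to 0.916 CPM in the shRNA libraries, where Nkx2-1 had no count. It summed to 37.3 to 47.9 in the S/S siRNA libraries, led by Nkx2-1. The sums were 381 to 425 in A/A siControl and 1214 to 1418 in A/A siChchd10, led by Sftpb in both. The S/S controls of the tables thus differ in this list, and comparisons were made only within a table.

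Per kilobase of exon, the scale on which genes can be compared, the enzymes of the main line led the 32 genes. The order among them depends on the length taken for each gene. For Eno1 it was 5379 bases over all exons, as used here, and 2027 for its longest transcript. In S/S siControl Gapdh stood at 517 CPM per kilobase, Ldha at 476, Aldoa at 455, Pkm at 379, Tpi1 at 362 and Pgk1 at 312. At the other end were Ldhb at 1.16, Pfkfb4 at 0.781, Eno2 at 0.354 and Slc2a3 at 0.100. In A/A siControl Ldha (614) and Pkm (569) were in the highest places, and Pdk4 (0.122) and Eno2 (0.0657) in the lowest. At several steps 1 isoform made up nearly all of the transcript: Ldha made up 99.8% ± 0.0338 (SD, n = 4) of the lactate dehydrogenase pair in S/S siControl, Slc2a1 99.7% ± 0.0526 of the glucose transporter pair, and Aldoa 98.8% ± 0.0198 of the aldolase pair.

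After Chchd10 knockdown 8 of the 32 genes rose in S/S cells and fell in A/A cells: Slc2a1, Pfkl, Aldoa, Pgk1, Ldha, Slc16a3, Pfkfb2 and Pfkfb3. No gene was called the other way round, Pdk2 rose in both genotypes, 17 genes passed in 1 genotype and 6 in neither. How many of all genes tested had each such pair of calls was not counted, so these counts have no background beside them. The S/S rises of Aldoa and Slc16a3 were lost without certain single libraries, as given with those genes. In S/S cells 11 of the 32 genes rose and 5 fell, with edgeR's quasi-likelihood test and Benjamini-Hochberg adjustment over all 18138 genes tested at a threshold of 0.05. Of all genes tested, 15.0% rose and 13.0% fell in that comparison, so the share of the 32 that rose was above the background and the share that fell was near it. The median log2 fold change was 0.05 over the 32 and 0.00 over all genes. In A/A cells 3 of the 32 rose and 16 fell, where 26.5% of all genes rose and 27.2% fell, and the median was -0.16 over the 32 and -0.01 over all genes. The background shares were not matched for abundance, and most of the 32 genes are abundant.

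A test of the difference between the knockdown effects (A/A minus S/S) called 17 of the 32 lower and 4 higher, against 18.9% lower and 16.7% higher among all genes. A lower effect in A/A cells was called for 1 of the 2 glucose transporters, 1 of the 2 hexokinases, 5 of the 7 genes of the upper steps, 4 of the 6 of the lower steps, 3 of the 4 of the lactate group, 2 of the 3 of fructose 2,6-bisphosphate control and 1 of the 4 PDH kinases. Of the 4 genes of the pyruvate carrier and the PDH complex, 3 (Mpc2, Pdha1 and Pdhb) had a higher effect in A/A cells and none a lower one. Slc2a3 was the other gene with a higher effect. The calls for Gapdh and Aldoc were lost under several alternatives, most of them leaving out 1 library, as given with those genes. Differences that were not called passed without 1 library for Tpi1 (lower, without S/S siControl replicate 4, A/A siControl replicate 4 or A/A siChchd10 replicate 3), Pdk3 (higher, without S/S siControl replicate 2, S/S siChchd10 replicate 4 or A/A siControl replicate 1) and Ldhb (higher, without A/A siControl replicate 1 or A/A siChchd10 replicate 3).

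**Figure D1:**
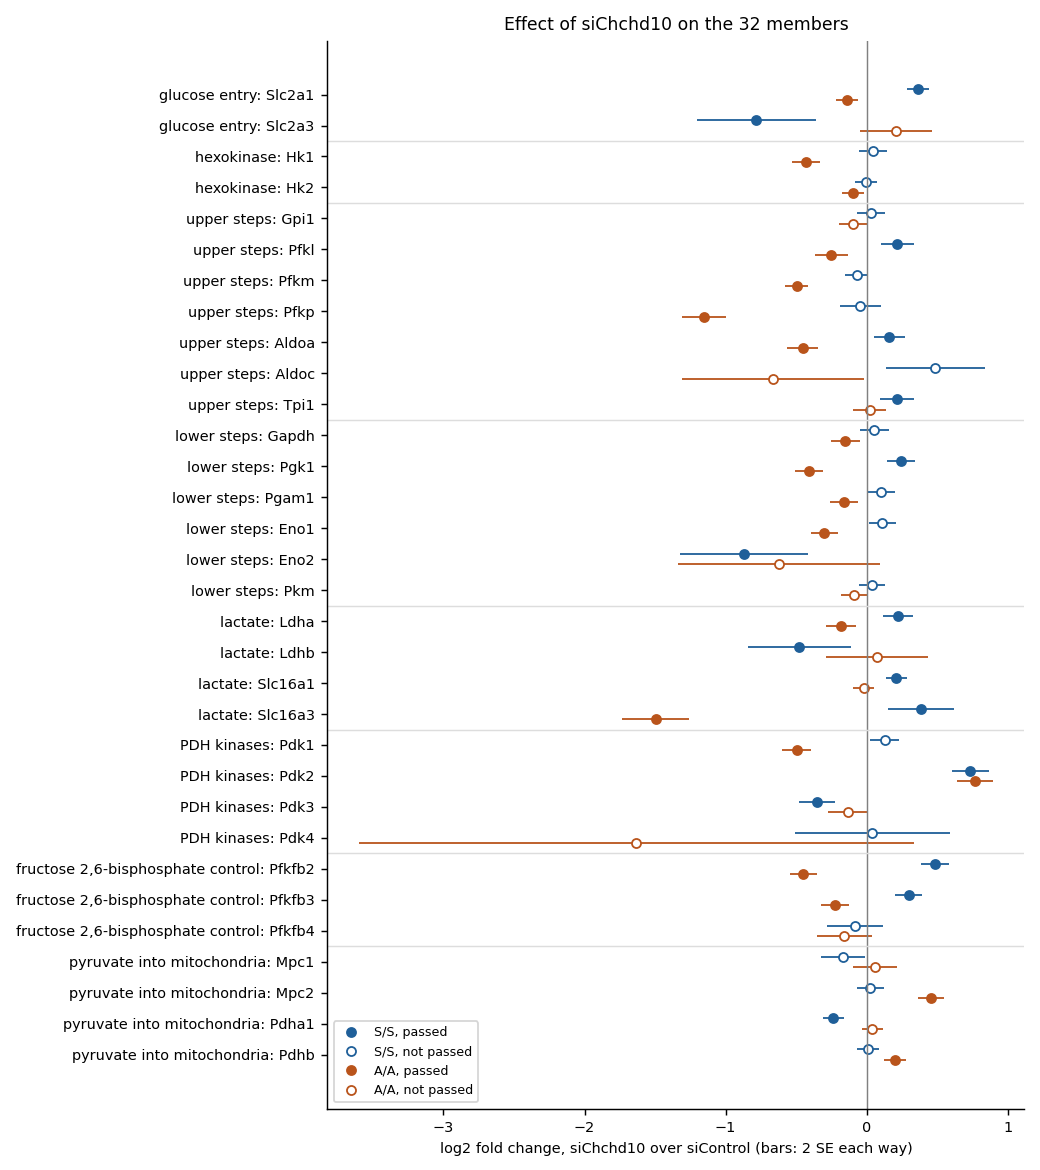
Log2 fold change of siChchd10 over siControl for the 32 genes, ordered by role, in S/S cells (blue) and A/A cells (orange). Bars are 2 standard errors each way, and filled points passed an adjusted p of 0.05. Slc16a3 and Pfkp lie furthest to the left among the filled A/A points, and Pdk2 lies to the right in both genotypes.

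Marker measures moved with the knockdown in both genotypes, and a quality measure, the nuclear RNAs, moved without overlap in A/A cells only. In S/S cells Epcam, an epithelial adhesion protein, was at 8.15 to 9.45 CPM in siControl and 33.4 to 36.8 in siChchd10, the keratin gene Krt7 at 99.2 to 124 and 206 to 254, and the surfactant gene Sftpb at 2.15 to 3.52 and 5.61 to 9.54. The epithelial list of 6 genes summed to 5355 to 5982 CPM and then 6081 to 6538 there, the fibroblast list to 3.84 to 4.93 and 5.01 to 7.02, and the neuronal list to 20.7 to 22.4 and 16.004 to 17.8, while the alveolar type 2 sums of 39.5 to 41.1 and 37.3 to 47.9 overlapped. In A/A cells the alveolar type 2 sum was at 381 to 425 CPM in siControl and at 1214 to 1418 in siChchd10, with all 7 genes detected and Sftpb the highest in both groups. The A/A fibroblast sum went from 4.49 to 5.21 CPM down to 2.17 to 2.38, with Col3a1 at 0 in both groups, and the muscle list of 6 genes was at 3.16 to 4.07 and then 14.5 to 17.5 CPM, led by Myh7 with Myod1 at 0 in both. The muscle list rose without overlap in S/S cells as well, from 2.09 to 3.10 CPM in siControl to 3.27 to 4.17 in siChchd10. Malat1 and Neat1, nuclear RNAs, summed to 739 to 780 CPM in A/A siControl and 344 to 532 in A/A siChchd10. Their S/S sums of 387 to 802 CPM in siControl and 516 to 812 in siChchd10 overlapped. The part of these shifts in the results below was not tested. In bulk RNA, fewer cells of a kind and less RNA per cell cannot be told apart.

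Of the 2 glucose transporter genes, Slc2a1 rose in S/S cells and fell in A/A cells, and Slc2a3 fell in S/S cells. Slc2a1, which encodes the main glucose transporter GLUT1 of these cells, stood at 118, 115, 119 and 125 CPM in S/S siControl and at 159, 153, 146 and 154 in S/S siChchd10. All 4 knockdown libraries were above all controls, with a log2 fold change of 0.36 ± 0.04 (SE), adjusted p = 2.41e-08. In A/A siControl its level was 107, 106, 106 and 98.2 CPM and in A/A siChchd10 95.99, 95.03, 95.8 and 92.4, a fall of smaller size (-0.14 ± 0.04 (SE), adjusted p = 0.00378). The difference between the effects was -0.50 ± 0.05 (SE), adjusted p = 5.04e-08.

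Slc2a3 encodes GLUT3, a transporter with high affinity for glucose, and was near the bottom of the range. It stood at 0.851, 0.704, 0.779 and 0.576 CPM in the S/S siControl libraries and 0.625, 0.339, 0.370 and 0.355 in S/S siChchd10 (-0.78 ± 0.21 (SE), adjusted p = 0.0056), where 1 knockdown library, the first, lay above the lowest control. A/A levels were higher, at 2.89, 3.28, 3.43 and 3.41 CPM in siControl and 4.04, 3.41, 3.58 and 3.97 in siChchd10, and the knockdown effect did not pass the test (0.21 ± 0.13 (SE), adjusted p = 0.172). The A/A level was 4.47 times the S/S level with siControl (2.16 ± 0.16 (SE), adjusted p = 6.83e-13), yet Slc2a1 still made up 98.5% ± 0.148 of the pair in A/A siControl.

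Hexokinases trap glucose in the cell as glucose 6-phosphate. Hk1 stood at 197, 197, 202 and 215 CPM in the S/S siControl libraries and 225, 215, 202 and 195 in S/S siChchd10, which overlap (0.04 ± 0.05 (SE), adjusted p = 0.564). It stood at 205, 207, 213 and 205 in A/A siControl and 158, 158, 164 and 136 in A/A siChchd10, where every knockdown library was below every control (-0.43 ± 0.05 (SE), adjusted p = 3.32e-08). Hk2, the form raised in many tumours, was at 233, 259.9, 238 and 242 CPM in S/S siControl, 249, 238, 241 and 239.8 in S/S siChchd10, 150.0, 152, 149.7 and 144 in A/A siControl and 147, 137, 137 and 135 in A/A siChchd10. Between the siControl groups Hk2 was lower in A/A cells without overlap (-0.71 ± 0.04 (SE), adjusted p = 2.02e-15), while Hk1 did not pass (0.03 ± 0.05 (SE), adjusted p = 0.571). The small fall of Hk2 after knockdown in A/A cells (-0.10 ± 0.04 (SE), adjusted p = 0.0404) failed the test under 11 of the alternatives, with adjusted p from 0.0553 to 0.172, among them leaving out any A/A library other than A/A siChchd10 replicate 1.

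At phosphofructokinase, the committed step, the platelet form changed most. Pfkp was at 121, 122, 123 and 122 CPM in the S/S siControl libraries and 133, 121, 110.0 and 109 in S/S siChchd10, with no call (-0.05 ± 0.07 (SE), adjusted p = 0.695). In A/A siControl it was at 68.2, 60.3, 63.1 and 52.4 CPM and in A/A siChchd10 at 28.7, 24.02, 29.5 and 27.7, so that the highest knockdown library was below the lowest control and the level after knockdown was 45.04% of the control (-1.15 ± 0.08 (SE), adjusted p = 4.69e-10). The siControl groups differed as well, with A/A at 50.04% of S/S (-0.999 ± 0.07 (SE), adjusted p = 4.83e-10).

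The other phosphofructokinases moved less. Pfkm, the muscle form, stood at 169, 173, 159.8 and 171 CPM in the S/S siControl libraries and 169, 159, 157 and 156 in S/S siChchd10, and at 122, 121, 128 and 119 in A/A siControl and 82.6, 92.6, 86.8 and 85.7 in A/A siChchd10. It fell after knockdown in A/A cells (-0.50 ± 0.04 (SE), adjusted p = 5.45e-11) and did not pass in S/S cells (-0.07 ± 0.04 (SE), adjusted p = 0.208). The 2 effects differed (-0.42 ± 0.06 (SE), adjusted p = 1.69e-06). Pfkl, the liver form, was at 350.4, 299.9, 350.5 and 369 CPM in the S/S siControl libraries and 424, 399, 375 and 394 in S/S siChchd10, a rise (0.22 ± 0.06 (SE), adjusted p = 0.00662), and at 359, 337, 359 and 309.6 in A/A siControl and 292, 271, 309 and 273 in A/A siChchd10, a fall (-0.25 ± 0.06 (SE), adjusted p = 0.000799). Pfkl made up 46.2% ± 2.58 of the 3 forms in S/S siControl and 60.4% ± 2.05 in A/A siChchd10, while Pfkp went from 8.22% ± 0.336 to 2.89% ± 0.224, all SD with n = 4.

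Aldolase splits the 6-carbon sugar. Aldoa, its main form here, stood at 1328, 1245, 1283 and 1440.0 CPM in the S/S siControl libraries and 1619, 1472, 1391 and 1439 in S/S siChchd10, which overlap (0.16 ± 0.05 (SE), adjusted p = 0.0238). That call was lost without S/S siControl replicate 2 or 3 or without S/S siChchd10 replicate 1, with adjusted p from 0.0608 to 0.124. Aldoa in A/A cells was at 1147, 1079, 1124 and 998 CPM in siControl and 796, 784, 837 and 756 in siChchd10, without overlap (-0.46 ± 0.05 (SE), adjusted p = 3.97e-08).

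Aldoc, the brain form, was a minor transcript, far lower in A/A cells. It stood at 17.5, 16.2, 17.3 and 19.3 CPM in the S/S siControl libraries and 30.9, 26.2, 19.00 and 22.4 in S/S siChchd10 (0.49 ± 0.17 (SE), adjusted p = 0.0539), and at 2.69, 1.94, 1.57 and 0.814 in A/A siControl and 1.25, 1.30, 0.979 and 0.985 in A/A siChchd10 (-0.67 ± 0.32 (SE), adjusted p = 0.0997). Neither knockdown effect passed the test with all libraries. The S/S value passed without S/S siChchd10 replicate 3 (0.59, adjusted p = 0.0196), with the replicate number as a block (0.46, adjusted p = 0.0467) and in a fit of those 2 groups alone (0.49, adjusted p = 0.0136). The fall in A/A passed without A/A siControl replicate 4 (-0.88, adjusted p = 0.00914). The difference between the effects passed (-1.15 ± 0.37 (SE), adjusted p = 0.0257) but not without A/A siControl replicate 1 or 2 or A/A siChchd10 replicate 3 or 4, or with no filter on low counts, where adjusted p was 0.0558 to 0.0659. With siControl the A/A level was 10.1% of that in S/S (-3.31 ± 0.23 (SE), adjusted p = 1e-08).

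The isomerases of the upper steps, Gpi1 for glucose 6-phosphate and Tpi1 for the triose phosphates, did not pass the knockdown test in A/A cells. Tpi1 was at 1057, 882, 976 and 1076 CPM in the S/S siControl libraries and 1204, 1119, 1119.9 and 1192 in S/S siChchd10, a rise without overlap (0.22 ± 0.06 (SE), adjusted p = 0.00719). In A/A siControl it was at 756, 659, 715 and 624 CPM and in A/A siChchd10 at 676, 671, 750.3 and 695 (0.02 ± 0.06 (SE), adjusted p = 0.806). The level of Gpi1 ranged over 427 to 484 CPM in S/S siControl, 443 to 492 in S/S siChchd10, 341 to 386 in A/A siControl and 321 to 368 in A/A siChchd10. Its A/A knockdown effect was -0.10 ± 0.05 (SE), adjusted p = 0.0909, and it passed without A/A siChchd10 replicate 3 (-0.12, adjusted p = 0.0453).

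**Figure D2:**
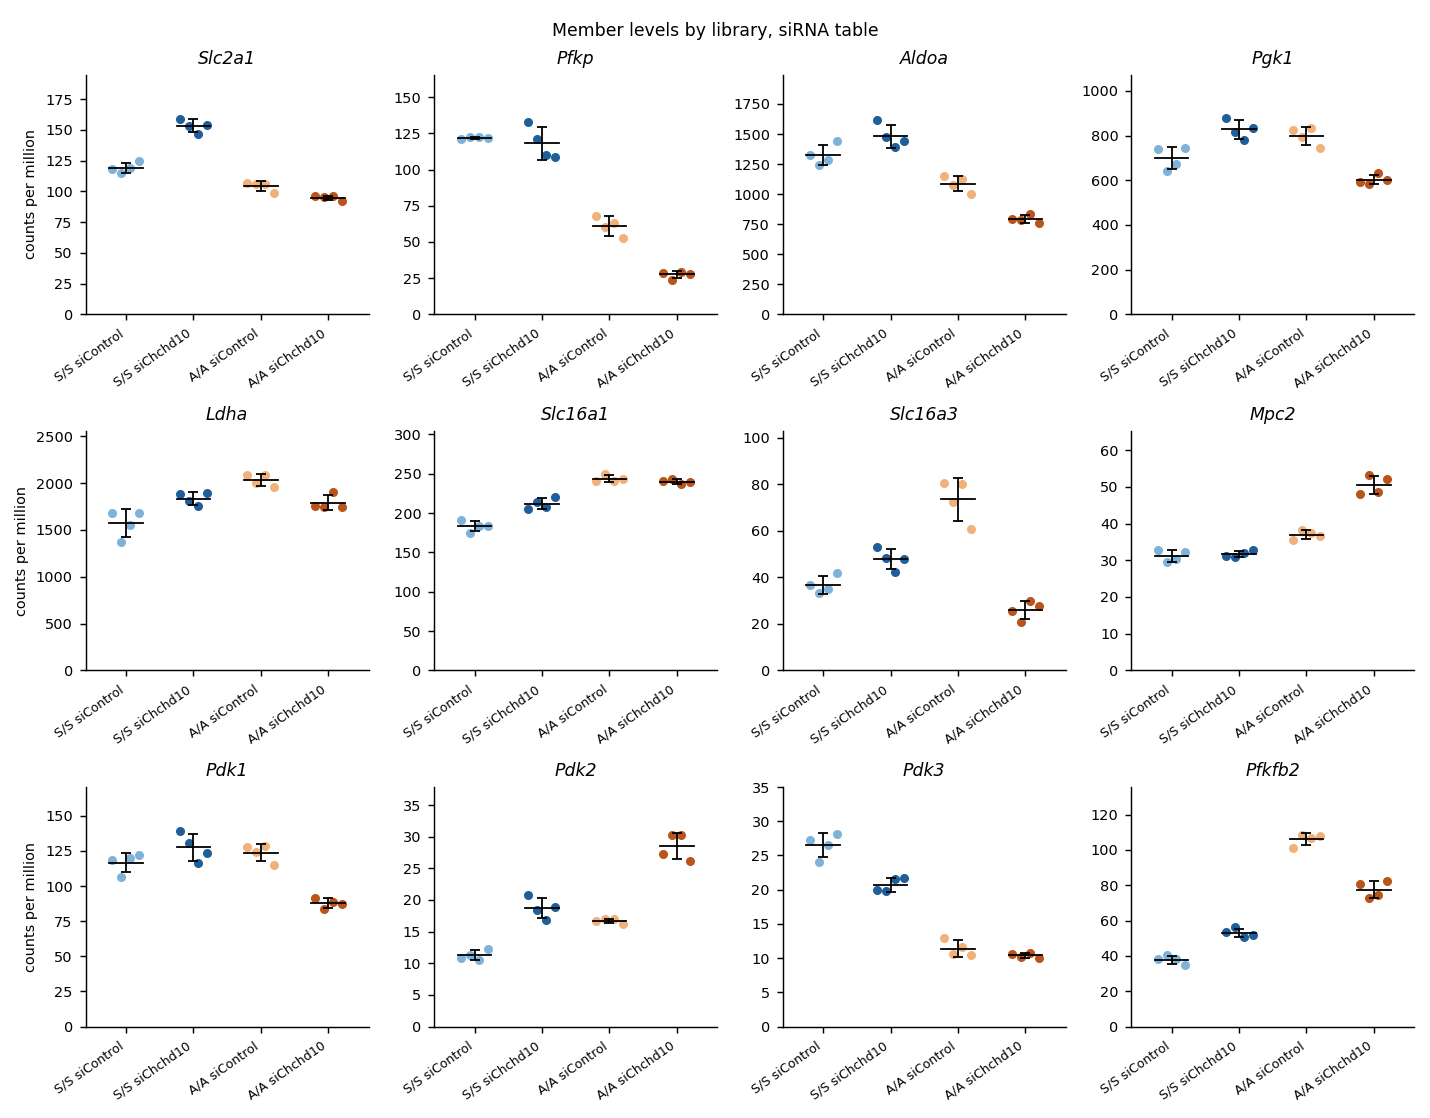
CPM of 12 of the 32 genes in each of the 16 libraries of the siRNA table. Points are libraries, horizontal lines are means and bars are SD over 4 libraries. Slc16a3 is highest in A/A siControl (60.8 to 80.7) and lowest in A/A siChchd10 (20.9 to 30.0), and Pdk2 is higher after siChchd10 in both genotypes.

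Among the lower steps Pgk1, which makes the first ATP of glycolysis, rose in S/S cells and fell in A/A cells. It stood at 741, 642, 674 and 743 CPM in the S/S siControl libraries and 879, 814, 780.5 and 836 in S/S siChchd10, and every knockdown library was above every control (0.24 ± 0.05 (SE), adjusted p = 0.000477). In A/A cells it was at 825, 795, 834 and 745 CPM in siControl and 592, 583, 632 and 601 in siChchd10, and every knockdown library was below every control (-0.41 ± 0.05 (SE), adjusted p = 7.9e-08). The difference between the effects was -0.65 ± 0.07 (SE), adjusted p = 4.43e-08.

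Gapdh, Pgam1 and Eno1 fell in A/A cells and did not pass in S/S cells. Eno1, the main enolase, stood at 824, 783, 834 and 805 CPM in A/A siControl and 681, 657, 686 and 609 in A/A siChchd10 (-0.30 ± 0.05 (SE), adjusted p = 4.98e-06), and at 818 to 974 in S/S siControl and 941 to 982 in S/S siChchd10 (0.11 ± 0.05 (SE), adjusted p = 0.0872). The S/S value passed without S/S siControl replicate 4 (0.15, adjusted p = 0.0189), as did that of Pgam1 (0.14, adjusted p = 0.0487). Rows of 7 retrogenes or pseudogenes that match Eno1, led by Eno1b, held 33.4% as many counts as Eno1 in the siRNA table, so its value is uncertain to that extent. Gapdh was at 1741 to 1884 CPM in A/A siControl and 1597 to 1725 in A/A siChchd10 (-0.15 ± 0.05 (SE), adjusted p = 0.0138), a call lost without A/A siControl replicate 1 or 3 or A/A siChchd10 replicate 4, where adjusted p was 0.0579 to 0.0723. The difference between its effects (-0.20 ± 0.07 (SE), adjusted p = 0.0286) lost its call under 10 alternatives, with adjusted p from 0.0502 to 0.0899. They were RLE size factors and leaving out S/S siControl replicate 2 or 3, S/S siChchd10 replicate 1 or 4, A/A siControl replicate 1 or 3 or A/A siChchd10 replicate 1, 2 or 4. Pgam1, phosphoglycerate mutase, was at 256 to 276 and 231 to 256 CPM in the same groups (-0.16 ± 0.05 (SE), adjusted p = 0.0068).

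Eno2, the neuronal enolase, was a trace transcript. It stood at 1.13, 2.28, 1.84 and 1.41 CPM in the S/S siControl libraries and 1.10, 0.957, 0.799 and 0.814 in S/S siChchd10, lower without overlap (-0.87 ± 0.23 (SE), adjusted p = 0.0043). In A/A siControl it was at 0.189, 0.336, 0.347 and 0.364 CPM and in A/A siChchd10 at 0.245, 0.136, 0.0851 and 0.289 (-0.62 ± 0.36 (SE), adjusted p = 0.145). Pkm, pyruvate kinase, ended the pathway with no call after knockdown in either genotype (0.04, adjusted p = 0.615 in S/S and -0.09, adjusted p = 0.1 in A/A). Its level was 1938, 1747, 1897 and 1999 CPM in the S/S siControl libraries and 2883, 2819.7, 2941 and 2733 in A/A siControl, higher in all 4 A/A libraries (0.59 ± 0.05 (SE), adjusted p = 3.92e-12).

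Slc16a3, which encodes the lactate exporter MCT4, had the largest fall of the 32 genes among those called in A/A cells. Its gene lies at chr11:120948480-120960868 (GRCm38, plus strand). It stood at 36.9, 33.4, 34.9 and 41.97 CPM in the S/S siControl libraries and 53.01, 48.5, 42.4 and 47.9 in S/S siChchd10, where all knockdown libraries were above all controls (0.38 ± 0.12 (SE), adjusted p = 0.0266). It stood at 80.7, 72.3, 80.2 and 60.8 in A/A siControl and 25.6, 20.9, 29.96 and 27.7 in A/A siChchd10, where the lowest control was above the highest knockdown library and the level after knockdown was 35.5% of control (-1.50 ± 0.12 (SE), adjusted p = 1.06e-07). The difference between the effects was -1.88 ± 0.17 (SE), adjusted p = 1.27e-06. The S/S rise was not past the threshold without S/S siControl replicate 1, 2 or 3 or S/S siChchd10 replicate 1, 2 or 4, each alone, or with no filter on low counts, with adjusted p from 0.0536 to 0.0819. With siControl the A/A level was 2.00 times that in S/S (1.001 ± 0.12 (SE), adjusted p = 2.59e-06).

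Slc16a1 encodes MCT1, which carries lactate in either direction. It stood at 191, 175, 184 and 184 CPM in the S/S siControl libraries and 205, 214, 208 and 221 in S/S siChchd10 (0.21 ± 0.04 (SE), adjusted p = 6.42e-05). In A/A siControl it was at 241, 250.1, 241 and 243 CPM and in A/A siChchd10 at 240.5, 243, 237 and 239, an effect that did not pass (-0.02 ± 0.04 (SE), adjusted p = 0.626). Per kilobase, Slc16a3 was 14.3% ± 1.13 of the pair in S/S siControl, 15.8% ± 1.35 in S/S siChchd10, 20.03% ± 2.16 in A/A siControl and 8.28% ± 1.21 in A/A siChchd10 (SD, n = 4). The pair was thus made mostly of Slc16a1 in every group, and most so after knockdown in A/A cells.

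Ldha, which reduces pyruvate to lactate, stood at 1684, 1372, 1556 and 1685 CPM in the S/S siControl libraries and 1879, 1808, 1758 and 1896 in S/S siChchd10 (0.22 ± 0.05 (SE), adjusted p = 0.00222). In A/A cells it was at 2084, 1998, 2088 and 1956 CPM in siControl and 1759, 1739.9, 1907 and 1749 in siChchd10 (-0.18 ± 0.05 (SE), adjusted p = 0.00487), with every knockdown library below every control. Ldhb, the form that favours the reverse reaction, was at 2.24, 1.70, 1.73 and 1.62 CPM in the S/S siControl libraries and 1.54, 1.28, 1.09 and 1.31 in S/S siChchd10 (-0.48 ± 0.18 (SE), adjusted p = 0.049). That call was lost under 8 alternatives with adjusted p from 0.0551 to 0.171, including leaving out S/S siControl replicate 1, 2 or 3 or S/S siChchd10 replicate 2, 3 or 4. A pseudogene row, Ldhb-ps, held 20.4% as many counts as Ldhb.

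The PDH kinases changed their make-up. Pdk2, the most widely expressed form, was the gene of the 32 that rose in both genotypes. It stood at 10.9, 11.4, 10.5 and 12.3 CPM in the S/S siControl libraries and 20.8, 18.4, 16.9 and 18.97 in S/S siChchd10, and at 16.6, 16.96, 17.00 and 16.3 in A/A siControl and 27.2, 30.2, 30.2 and 26.2 in A/A siChchd10. Each knockdown group lay wholly above its control, with 0.73 ± 0.07 (SE), adjusted p = 1.25e-09 in S/S and 0.77 ± 0.06 (SE), adjusted p = 3.86e-11 in A/A. The difference between these effects was 0.03 ± 0.09 (SE), adjusted p = 0.816, with an interval of -0.15 to 0.21.

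Pdk1, the hypoxia-responsive form, was at 119, 106, 120.0 and 122 CPM in the S/S siControl libraries and 139, 131, 116 and 123 in S/S siChchd10 (0.13 ± 0.05 (SE), adjusted p = 0.0636), and at 127, 124, 129 and 115 in A/A siControl and 91.8, 83.5, 88.9 and 86.99 in A/A siChchd10 (-0.50 ± 0.05 (SE), adjusted p = 4.91e-09). The A/A libraries did not overlap, and the S/S ones did. The S/S value passed without S/S siControl replicate 4 (0.15, adjusted p = 0.0485) or S/S siChchd10 replicate 3 (0.17, adjusted p = 0.0144), and with no filter on low counts (0.13, adjusted p = 0.0283). Pdk3 stood at 27.2, 24.03, 26.5 and 28.2 CPM in the S/S siControl libraries and 19.9, 19.7, 21.5 and 21.7 in S/S siChchd10, a fall without overlap (-0.35 ± 0.06 (SE), adjusted p = 7.55e-05). A/A libraries had it at 12.97, 10.6, 11.7 and 10.4 and 10.6, 10.2, 10.7 and 10.1 CPM, and the A/A siControl level was 43.1% of that in S/S (-1.21 ± 0.07 (SE), adjusted p = 9.4e-16).

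Pdk4, the form induced by fasting in muscle, had the largest difference between the genotypes among the 32 genes. It stood at 20.1, 14.4, 17.4 and 17.1 CPM in the S/S siControl libraries and 18.9, 18.7, 16.1 and 17.2 in S/S siChchd10, and at 1.48, 0.0988, 0.0817 and 0.0643 in A/A siControl and 0.204, 0.0776, 0.234 and 0.0920 in A/A siChchd10. A/A siControl replicate 1 was far above the other 3 libraries of its group, at 8.55% of the mean S/S siControl level where the others were at 0.372% to 0.573%. The A/A against S/S value was -5.25 ± 0.44 (SE), adjusted p = 1.35e-07 with all libraries and -7.67, adjusted p = 1.57e-22 without that one. The knockdown effect in A/A did not pass (-1.63 ± 0.98 (SE), adjusted p = 0.184) and changed sign without that library (0.80, adjusted p = 0.21). Per kilobase, Pdk4 was 14.5% ± 1.33 of the 4 kinases in S/S siControl and 0.456% ± 0.729 in A/A siControl, while Pdk2 was 10.6% ± 0.930 in S/S siControl, 16.7% ± 0.643 in S/S siChchd10, 20.5% ± 0.912 in A/A siControl and 36.9% ± 2.08 in A/A siChchd10 (SD, n = 4).

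**Figure D3:**
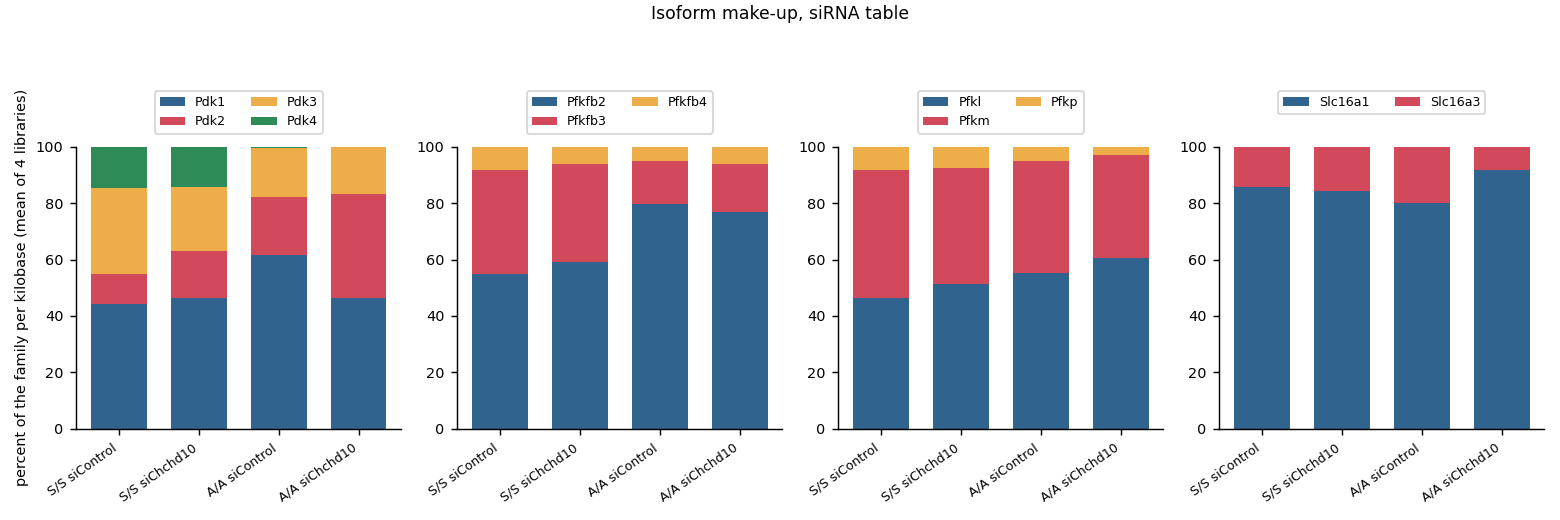
Mean percentage of each isoform in the summed level per kilobase of its family, for PDH kinases, the PFKFB enzymes, phosphofructokinases and monocarboxylate transporters, in the 4 siRNA groups (means of 4 libraries). Pdk4 holds 14.5% of the kinases in S/S siControl and under 1% in both A/A groups, and Pdk2 reaches 36.9% in A/A siChchd10.

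Fructose 2,6-bisphosphate, the strongest activator of phosphofructokinase, is made and removed by the PFKFB enzymes. Pfkfb2 stood at 38.1, 40.3, 38.05 and 34.9 CPM in the S/S siControl libraries and 53.3, 56.4, 50.6 and 51.7 in S/S siChchd10 (0.48 ± 0.05 (SE), adjusted p = 1.1e-08). It was at 101, 108, 107 and 108 in A/A siControl and 80.9, 72.5, 74.5 and 82.2 in A/A siChchd10 (-0.45 ± 0.05 (SE), adjusted p = 4.82e-09). Neither genotype's groups overlapped, the directions were opposite, and the difference between the effects was -0.94 ± 0.07 (SE), adjusted p = 3.53e-11. With siControl the A/A level was 2.80 times that in S/S (1.49 ± 0.05 (SE), adjusted p = 9.57e-21).

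Pfkfb3, a form in which the kinase activity far exceeds the phosphatase activity, had the same directions after knockdown at lower levels. It was at 25.9, 27.1, 25.5 and 27.3 CPM in S/S siControl, 33.9, 32.7, 30.6 and 32.99 in S/S siChchd10, 20.4, 21.5, 21.7 and 19.9 in A/A siControl and 17.1, 18.2, 18.02 and 18.1 in A/A siChchd10. It rose in S/S (0.30 ± 0.05 (SE), adjusted p = 2.07e-05) and fell in A/A (-0.22 ± 0.05 (SE), adjusted p = 0.000406). Unlike Pfkfb2, Pfkfb3 was lower in A/A than in S/S cells with siControl, without overlap. That log2 fold change was -0.34, past the threshold, and -0.37 to -0.32 over the alternatives. Pfkfb4 stayed between 3.15 and 4.80 CPM over the 16 siRNA libraries and passed neither knockdown test.

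Of the 4 genes of the pyruvate carrier and the first PDH enzyme, Mpc2 and Pdhb rose after knockdown in A/A cells and Mpc1 and Pdha1 did not pass there. Mpc2, a subunit of the pyruvate carrier, was at 35.4, 38.3, 37.4 and 36.6 CPM in A/A siControl and 48.1, 53.2, 48.5 and 52.1 in A/A siChchd10, higher in all 4 knockdown libraries (0.45 ± 0.05 (SE), adjusted p = 3.19e-09), and at 29.5 to 32.8 and 30.9 to 32.8 in the S/S groups (0.03 ± 0.05 (SE), adjusted p = 0.751). Pdhb, the beta subunit of the first PDH enzyme, rose in A/A cells from 93.3 to 97.2 to 105 to 112 CPM (0.20 ± 0.04 (SE), adjusted p = 8.36e-05) and not in S/S cells (0.01 ± 0.04 (SE), adjusted p = 0.884). Pdha1, the alpha subunit that the kinases phosphorylate, was at 191, 179, 177 and 187 CPM in the S/S siControl libraries and 150.1, 155, 162 and 155 in S/S siChchd10, lower in all 4 libraries (-0.24 ± 0.04 (SE), adjusted p = 1.23e-05), with no call in A/A (0.04 ± 0.04 (SE), adjusted p = 0.372). Mpc1, the other carrier subunit, passed neither test and shares sequence with Mpc1-ps and 2 other rows that held 26.4% as many counts.

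Promoters were searched for 3 motifs on both strands, since many of the genes moved together. RefSeq windows (GRCm38.p6) of 250 bases before to 50 after a start site were given for 31 of the 32 genes, 48 windows in all, and none for Slc2a3. The core of the hypoxia response element, ACGTG or GCGTG, was in a window of 28 of the 31 genes, in 46.7% of all 27025 genes with a window and in 62.8% of those tested in the siRNA table. Genes with several windows have more places for a match. By window, the core was in 38 of the 48 (79.2%) and in 43.8% of all 32851 windows. It was absent from the windows of Gpi1, Tpi1 and Eno2. It was present in all 16 genes with a window that fell after knockdown in A/A cells and in 12 of the 15 others, so most genes that did not fall held it too. The E-box CACGTG, whose letters hold an ACGTG, was in 6 of the 31 (19.4%), in 8.09% of all genes and in 10.9% of those tested. By window it was in 12.5% of the 48 and 7.15% of all. The ATF4 element TGATGNAA was in none of the 31, in 4.51% of all genes and in 3.02% of those tested.

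Windows are shown for 3 genes that fell after knockdown in A/A cells (Slc16a3, Pgk1 and Pdk1) and for Mpc2, which rose, each 5′ to 3′ on the plus strand. They are the 250 bases before the start at chr11:120948817-120949066, chrX:106186850-106187099, chr2:71872974-71873223 and chr1:165461010-165461259. Capitals mark the hypoxia core or its reverse complement. Slc16a3 has 2 matches, starting 27 and 14 bases before the start site. Pgk1 has 2, at 150 and 131 bases, Pdk1 has 1 at 78 bases and Mpc2 has 1 at 242 bases. A match describes the letters and is not evidence of binding.
Slc16a3: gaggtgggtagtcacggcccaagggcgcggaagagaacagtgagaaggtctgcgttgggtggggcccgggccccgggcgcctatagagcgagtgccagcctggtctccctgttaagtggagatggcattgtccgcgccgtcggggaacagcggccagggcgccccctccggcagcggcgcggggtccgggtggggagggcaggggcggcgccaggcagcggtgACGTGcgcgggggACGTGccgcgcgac
Pgk1: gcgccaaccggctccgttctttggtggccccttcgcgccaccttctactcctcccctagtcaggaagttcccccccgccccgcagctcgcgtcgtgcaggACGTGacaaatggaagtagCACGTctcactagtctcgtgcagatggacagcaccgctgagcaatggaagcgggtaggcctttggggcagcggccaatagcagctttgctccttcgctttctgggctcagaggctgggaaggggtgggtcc
Pdk1: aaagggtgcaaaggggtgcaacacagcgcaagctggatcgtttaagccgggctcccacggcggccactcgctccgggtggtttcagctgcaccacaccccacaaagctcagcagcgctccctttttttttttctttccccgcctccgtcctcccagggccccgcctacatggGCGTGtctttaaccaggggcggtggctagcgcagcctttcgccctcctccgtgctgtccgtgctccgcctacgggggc
Mpc2: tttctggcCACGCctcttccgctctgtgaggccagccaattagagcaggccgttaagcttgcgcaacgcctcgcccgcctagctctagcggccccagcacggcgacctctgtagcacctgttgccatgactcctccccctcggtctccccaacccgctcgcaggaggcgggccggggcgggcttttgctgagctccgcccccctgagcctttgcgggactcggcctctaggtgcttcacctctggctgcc

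Between the genotypes with siControl, 12 of the 32 genes were higher and 14 lower in A/A cells, where 35.6% of all genes were higher and 34.7% lower, so the share higher was near the background and the share lower somewhat above it. These values share their control libraries with both knockdown comparisons. The Y-linked RNA Ddx3y stood at 47.6 to 56.7 CPM in S/S siControl and 129 to 147 in A/A siControl. A difference between the cells other than eIF2α thus cannot be told apart from the genotype. The same holds for the difference between the knockdown effects. The upper steps leaned to one side: 6 of their 7 genes were lower and none higher, from -3.31 for Aldoc to -0.28 for Aldoa among those called, and Pfkl did not pass (-0.01, adjusted p = 0.934). Tpi1 was at 69.02% of that in S/S (-0.53 ± 0.06 (SE), adjusted p = 9.34e-09) and Eno2 at 18.4% (-2.44 ± 0.27 (SE), adjusted p = 3.39e-09).

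Of the 4 lactate genes 3 were higher in A/A siControl and none lower, as were 3 of the 4 genes of the pyruvate carrier and the PDH complex. Of the 4 PDH kinases Pdk2 was higher and Pdk3 and Pdk4 were lower. Slc16a3, Slc16a1 and Ldha were higher in A/A siControl and Ldhb did not pass (-0.38 ± 0.18 (SE), adjusted p = 0.0587), although it did without A/A siControl replicate 1 (-0.53, adjusted p = 0.0143). Ldha was 1.29 times and Slc16a1 1.33 times the S/S level. Mpc2, Pdha1 and Pdhb were higher by 0.24, 0.23 and 0.31 on the log2 scale, with adjusted p of 4.94e-05, 3.76e-06 and 5.63e-08. Pgk1 was higher (0.19 ± 0.05 (SE), adjusted p = 0.00119), unlike Gapdh (-0.23 ± 0.05 (SE), adjusted p = 0.00023) beside it in the pathway. Eno1 was lower (-0.15 ± 0.05 (SE), adjusted p = 0.00783), a call lost without S/S siControl replicate 4 (adjusted p = 0.0571), and Pfkfb4 was higher (0.24 ± 0.10 (SE), adjusted p = 0.0299), a call lost without S/S siControl replicate 1 or 2 or A/A siControl replicate 3, with no filter on low counts and with DESeq2, where adjusted p was 0.0522 to 0.106. Pgam1, Pdk1 and Mpc1 did not pass, although they did without S/S siControl replicate 2, A/A siControl replicate 4 and A/A siControl replicate 2 respectively (-0.12, adjusted p = 0.0222, 0.12, adjusted p = 0.0448 and -0.19, adjusted p = 0.0461). The alveolar type 2 sum was 39.5 to 41.1 CPM in S/S siControl and 381 to 425 in A/A siControl. The neuronal list of 5 genes was at 20.7 to 22.4 CPM in S/S siControl, led by Map2, and at 1.72 to 3.35 in A/A siControl, with no gene at 0, beside the lower Aldoc and Eno2. The part of both lists in these differences was not tested.

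**Figure D4:**
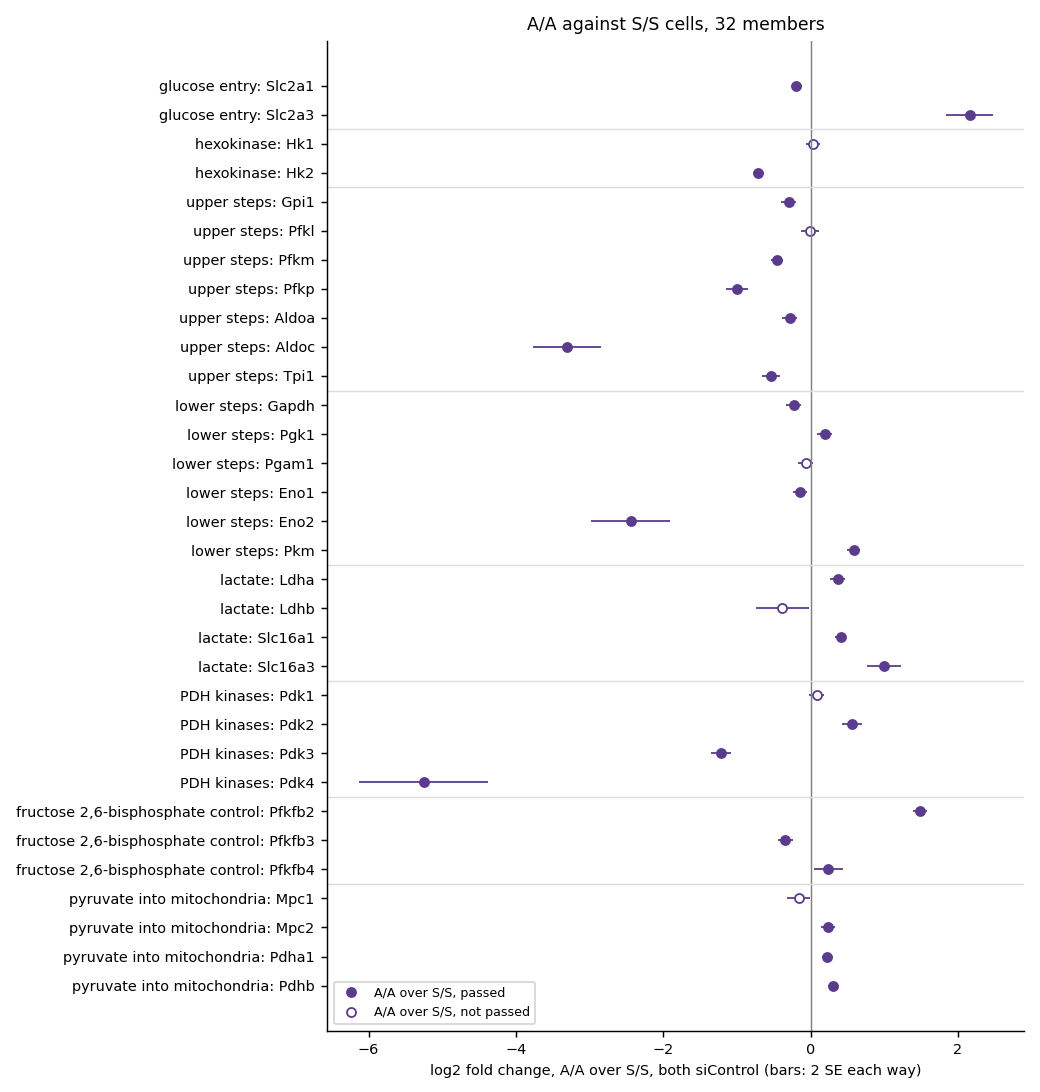
Log2 fold change of A/A over S/S cells, both with siControl, for the 32 genes ordered by role. Bars are 2 standard errors each way and filled points passed an adjusted p of 0.05. Pdk4 (-5.25), Aldoc (-3.31) and Eno2 (-2.44) lie furthest to the left, and Slc2a3 (2.16) and Pfkfb2 (1.49) furthest to the right.

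Other genes of glucose metabolism were taken from 7 lists of 99 genes, of which 89 were tested in the siRNA table. After knockdown 25 rose and 13 fell in S/S cells, and 26 rose and 29 fell in A/A cells. These are 28.1% and 14.6% of the 89 in S/S, against 15.0% and 13.0% of all genes, and 29.2% and 32.6% in A/A, against 26.5% and 27.2%. The pentose phosphate list had 5 of 10 higher and none lower in S/S, and 4 higher and 4 lower in A/A. Glycogen genes had 7 of 12 lower and 3 higher in A/A. Transcription regulators of glycolysis, 18 genes with Hif1a and Myc among them, had 5 higher and 2 lower in S/S, and 4 higher and 6 lower in A/A.

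The largest changes on these lists included an isoform best known from another tissue. Fbp2, the muscle fructose bisphosphatase, which runs the phosphofructokinase step backwards, was at 0.425, 0.593, 0.684 and 0.405 CPM in the S/S siControl libraries and 2.00, 2.35, 1.68 and 2.00 in S/S siChchd10 (1.90 ± 0.15 (SE), adjusted p = 1.03e-10). With siControl Fbp2 was 51.2 times as high in A/A as in S/S cells (5.68 ± 0.11 (SE), adjusted p = 1.42e-26), and Gpd1, glycerol 3-phosphate dehydrogenase, was higher as well (1.63, adjusted p = 9.26e-18). Hkdc1, a hexokinase relative, was lower in A/A siControl (-3.43, adjusted p = 1.04e-13), as was Stbd1, a glycogen-binding protein (-2.60, adjusted p = 1.23e-17). Shpk, which phosphorylates sedoheptulose, rose after knockdown in both genotypes (0.91 in S/S and 0.97 in A/A, adjusted p = 5.85e-05 and 4.45e-07), and Stbd1 fell in both (-0.39 and -0.95, adjusted p = 0.00183 and 2.04e-06). Sirt4, a mitochondrial sirtuin, fell in A/A (-0.80, adjusted p = 2.28e-07) and Pdp1, the phosphatase that reactivates PDH, fell in S/S (-0.53, adjusted p = 1.25e-08). The difference between the effects was 0.49 for Slc16a8, -1.24 for Fbp2 and -0.99 for Gpd1, with adjusted p of 0.0088, 1.49e-06 and 1.24e-08.

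Without the replicate block, Atf4 knockdown in S/S cells gave no call among the 30 of the 32 genes that were tested in the shRNA table. The 30 include Gapdh, whose row there does not hold the level of the gene, as given below. The fit with the block, given below, called 1 higher and 5 lower, against 10.1% of all genes each way. Without the block 0.150% of the 14697 genes tested were called higher and 0.388% lower by edgeR's quasi-likelihood test. The background of calls in that fit was thus itself low, and the values that follow are also without the block. At an unadjusted p under 0.05, 4 of the 30 passed, all lower (Pfkp, Eno2, Ldhb and Pdk2), against 10.5% of all genes, and DESeq2 called 1 (Ldhb, lower), against 2.74% of all genes. The median log2 fold change was -0.01 over the 30 genes and 0.00 over all genes. Pdk4 (0 to 0.225 CPM) and Slc2a3 (0 to 0.586 CPM) were too low to be tested.

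Libraries of the shRNA table with the same replicate number deviated together, and number 4 of each group stood apart from the others. With the replicate number as a block, 1 of the 30 genes was higher and 5 were lower, against 10.1% higher and 10.1% lower among all genes. Leaving out replicate 4 of both groups, without the block, gave 4 genes lower and none higher, against 6.14% lower and 5.58% higher among all genes. Between the S/S shControl and S/S shAtf4 libraries the Y-linked RNA Ddx3y went from 44.4 to 53.5 CPM to 0.645 to 1.34, so a difference in the cells other than Atf4 cannot be told apart from the knockdown.

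Ldhb was the lowest of the 30 relative to control. It stood at 3.38, 3.66, 3.70 and 1.05 CPM in S/S shControl and 0.784, 0.563, 0.516 and 0.314 in S/S shAtf4, lower in all 4 libraries than in any control (-2.54 ± 0.45 (SE), adjusted p = 0.0532). The blocked value was -2.36 ± 0.28 (SE), adjusted p = 3.53e-05, and without S/S shControl replicate 4, the control with the lowest level, it was -2.82, adjusted p = 0.0039. Its pseudogene row held 14.1% as many counts.

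Aldoc was at 56.2, 66.02, 63.8 and 3.68 CPM in S/S shControl and 35.3, 36.7, 34.9 and 4.21 in S/S shAtf4. In both groups library 4 was far below the other 3, and the other 3 were lower after the Atf4 hairpin without overlap. The value was -0.79 ± 0.81 (SE), adjusted p = 0.815 with all libraries, -0.67 ± 0.13 (SE), adjusted p = 0.00533 with the replicate block and -0.80, adjusted p = 0.00052 without replicate 4 of both groups. Pfkp was at 172, 234, 221 and 124 and 140.1, 160.3, 135 and 105 CPM, lower in each numbered pair (-0.48 ± 0.21 (SE), adjusted p = 0.453, and -0.45 ± 0.07 (SE), adjusted p = 0.000704 with the replicate block). Without replicate 4 of both groups it was -0.53, adjusted p = 0.0194.

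Pdk2 stood at 6.15, 5.71, 4.84 and 2.40 CPM in S/S shControl and 3.49, 3.49, 2.41 and 2.22 in S/S shAtf4 (-0.75 ± 0.31 (SE), adjusted p = 0.425, and -0.67 ± 0.19 (SE), adjusted p = 0.0179 with the block). Pdk3 stood at 20.1, 22.4, 23.6 and 15.4 and 28.9, 23.1, 28.8 and 18.5 CPM, higher in each numbered pair (0.28 ± 0.18 (SE), adjusted p = 0.662, and 0.28 ± 0.09 (SE), adjusted p = 0.0354 with the block). Eno2 was at 3.12, 3.44, 3.88 and 4.50 and 0.784, 3.15, 0.859 and 2.57 CPM, where the pairs numbered 2 and 4 differed less than the others (-0.99 ± 0.43 (SE), adjusted p = 0.456, and -1.12 ± 0.30 (SE), adjusted p = 0.0207 with the block). Pdk2 also passed without replicate 4 of both groups (-0.85, adjusted p = 0.0253), and Eno2 and Pdk3 did not.

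The abundant enzymes were close between the hairpins. Ldha stood at 1394, 1349, 1384 and 1802 CPM in S/S shControl and 1606, 1322, 1427 and 1742 in S/S shAtf4, with library 4 of each group the highest. Its value was 0.04 ± 0.13 (SE), adjusted p = 0.949, and 0.04 ± 0.06 (SE), adjusted p = 0.677 with the block. Slc16a3 was at 148, 123, 137 and 157 and 169, 129, 141 and 162 CPM (0.09 ± 0.12 (SE), adjusted p = 0.859), with an interval of -0.14 to 0.32 for the difference without the block. With the block its value was 0.09 ± 0.05 (SE), adjusted p = 0.288. Pgk1 was lower in all 4 shAtf4 libraries than in any control, 1003, 1149, 998 and 975 against 971, 887, 913 and 954 CPM, and did not pass (-0.15 ± 0.08 (SE), adjusted p = 0.596; -0.14 ± 0.06 (SE), adjusted p = 0.126 with the block). Hk1, Hk2, Aldoa, Tpi1, Pgam1, Eno1 and Pkm had log2 fold changes from -0.05 to 0.16, none past the test with or without the block. Hk2 and Eno1 came nearest with the block, at 0.15 and 0.16 (adjusted p = 0.0613 and 0.0639).

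**Figure D5:**
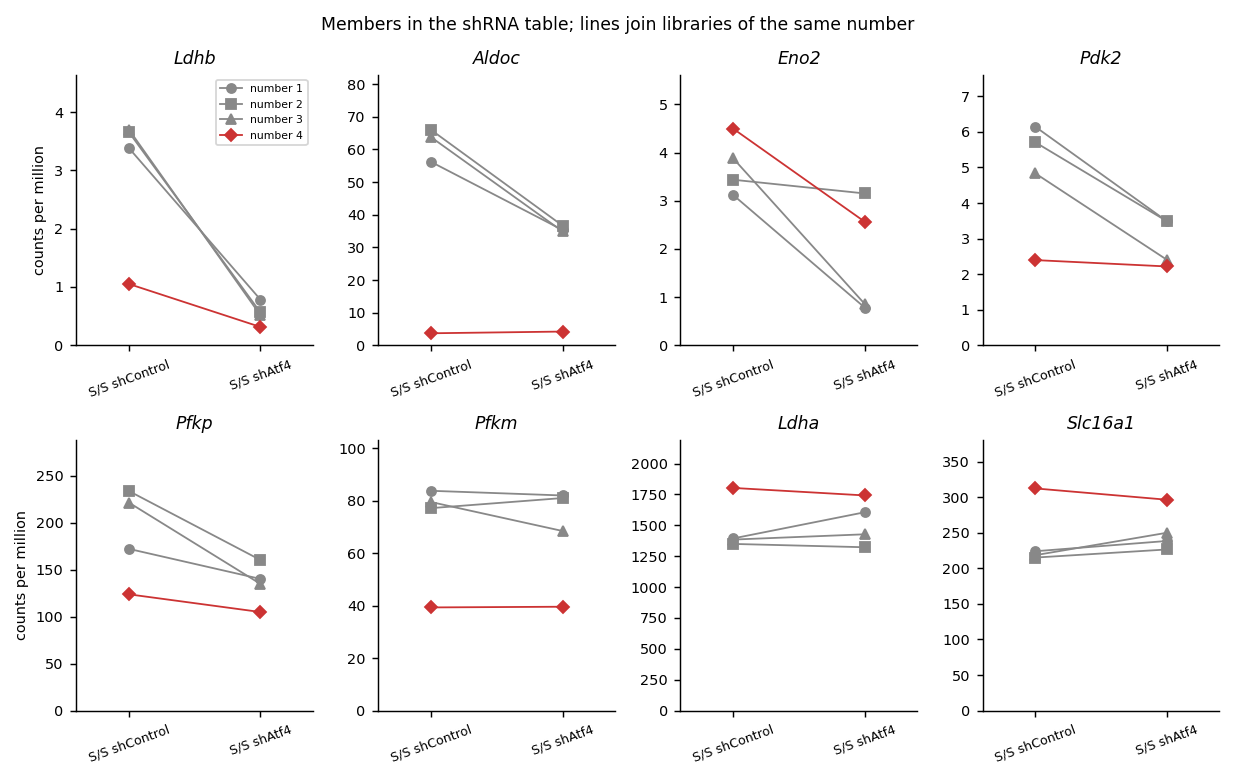
CPM of 8 genes in the 8 shRNA libraries, with lines joining S/S shControl and S/S shAtf4 libraries of the same number (number 4 in red). Ldhb is lower after the Atf4 hairpin in each pair, and number 4 lies apart from the others for Aldoc, Pfkm, Ldha and Slc16a1 in S/S shControl.

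The Gapdh row of the shRNA table does not hold the level of the gene. It stood at 8.98 to 12.1 CPM in S/S shControl and 8.28 to 23.2 in S/S shAtf4, where S/S siControl of the other table had 1917 to 2302. Rows of 183 Gapdh pseudogenes, led by Gm5559, held 27810 counts in the shRNA table and Gapdh itself 3106. The cause was not tested, and no change in Gapdh was read from that table.

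Of the 99 further genes of glucose metabolism, 78 were tested in the shRNA table and edgeR called none, with 8 at an unadjusted p under 0.05, and none with DESeq2. The 8 are 10.3% of the 78, against 10.5% of all genes. With the replicate block 8 were higher and 11 lower, or 10.3% and 14.1% against 10.1% and 10.1% of all genes. Among the 17 regulators tested, the block called Mlxipl (-1.44), Epas1 (-1.28), Hif1a (-0.53) and Txnip (-0.53) lower and Bhlhe40 (0.29), Myc (0.20) and Foxk2 (0.20) higher on the log2 scale, with adjusted p from 3.95e-05 to 0.0418. Hif1a, a subunit of the hypoxia-inducible factor, stood at 589, 572, 468 and 422 CPM in S/S shControl and 435, 330.1, 319 and 335 in S/S shAtf4 (-0.53 ± 0.14 (SE), adjusted p = 0.182, and -0.53, adjusted p = 8.61e-05 with the block). These 7 regulators were named after their values were seen.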

How the data were processed

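Gene counts per library were deposited by the authors as 2 tables, raw whole-number counts of polyadenylated RNA from TruSeq stranded libraries, per the labels' protocols. The build mm10 and DESeq2 1.24.0 are named in the submitters' processing notes; the aligner, the counter and its strand setting were not given in the sources used here. Every column was matched to a sample by its label.

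The members and all gene lists were chosen with earlier results of these data known. Each table was fitted by itself with edgeR 4.0.16 (filterByExpr, TMM, robust quasi-likelihood test) and p-values were adjusted over all genes tested by Benjamini-Hochberg, with a threshold of 0.05. Full library values were given for members that passed with a log2 fold change of at least 0.5 either way, and for their isoform partners; from the other lists, the 2 largest rises and falls per comparison whose average log2 CPM was at least 1 were named, except that 1 gene of these lists is not reported here. The fit was checked on simulated counts with the same dispersion for every gene and no replicate effect. That check does not cover the replicate structure of the shRNA table. Lengths came from GENCODE M21 (GRCm38). Copies were transcripts with at least 90% identity over 200 bases, a search added after seeing the data.

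In the shRNA table all 4 same-numbered pairs deviated together (correlations of 0.58 to 0.94 over 8000 genes, and -0.79 to 0.61 for unlike numbers). There 7 of the 8 libraries correlated best with the library of their own number in the other group. The numbers were therefore taken as paired, and the values with the replicate block stand beside the results they change. In the siRNA table same-numbered libraries did not deviate together. Alternatives were RLE factors, library totals, DESeq2 1.42.0, no filter, the replicate block, leaving out each library and fitting only the groups compared.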

Additional observations from a re-analysis of the deposited data

Results flagged for a closer look

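In 16 of 190 groups of 4 libraries, 1 library lay far from the other 3 by Dixon's test, which chance gives in about 1 in 20 groups. Library 4 of an shRNA group was the one apart in 8 of them. Aldoc was at 3.681 CPM in S/S shControl replicate 4 against 56.21 to 66.02 in the others of its group, and at 4.207 CPM in S/S shAtf4 replicate 4 against 34.89 to 36.65. Pfkm stood at 39.32 CPM in S/S shControl replicate 4 against 77.17 to 83.78, and Ldhb at 1.052 CPM in S/S shControl replicate 4 against 3.383 to 3.7. Higher than the rest were Ldha (1802.0 CPM in S/S shControl replicate 4 against 1349 to 1394) and Slc16a1 (312.2 CPM in S/S shControl replicate 4 against 215 to 223.9). Pfkfb2 (23.79 CPM in S/S shAtf4 replicate 4 against 17.11 to 18.02) and Mpc1 (6.423 CPM in S/S shAtf4 replicate 4 against 5.114 to 5.292) were higher as well. The remaining shRNA values were Pgk1 (1149.0 CPM in S/S shControl replicate 2 against 975.2 to 1003) and Pdha1 (140.3 CPM in S/S shControl replicate 1 against 161.7 to 165.1).

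Among the siRNA libraries, Pdk4 stood at 1.475 CPM in A/A siControl replicate 1 against 0.06427 to 0.09882 and Eno2 at 0.1891 CPM in A/A siControl replicate 1 against 0.336 to 0.3642, so the same library was above its group for one gene and below it for the other. Slc2a1 was at 98.24 CPM in A/A siControl replicate 4 against 106.1 to 106.6, and Slc2a3 at 0.6251 CPM in S/S siChchd10 replicate 1 against 0.339 to 0.3703. A/A siChchd10 replicate 3 was the highest of its group for Ldha, at 1907.0 CPM against 1740 to 1759, and the lowest for Ldhb, at 0.9576 against 1.571 to 1.656.

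The effect of siChchd10 differed between A/A and S/S cells for 21 genes by the interaction term in edgeR. On the log2 scale, A/A minus S/S, the difference was -0.4998 for Slc2a1, -0.4768 for Hk1, -0.4695 for Pfkl, -0.4247 for Pfkm, -1.104 for Pfkp, -0.6159 for Aldoa, -1.153 for Aldoc, -0.2035 for Gapdh and -0.6514 for Pgk1. It was -0.2628 for Pgam1, -0.4115 for Eno1, -0.4047 for Ldha, -0.2321 for Slc16a1, -1.88 for Slc16a3, -0.6237 for Pdk1, -0.9351 for Pfkfb2 and -0.5232 for Pfkfb3. The effect was higher in A/A cells by 0.9911 for Slc2a3, 0.4269 for Mpc2, 0.2773 for Pdha1 and 0.1906 for Pdhb. The Gapdh and Aldoc calls were lost under some alternatives, as given with those genes.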

How the results depend on the processing

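Of 2465 recomputed fold changes, no called value changed sign, and 84 uncalled ones did. Counts of members moved by more than 1.5 times only for shAtf4, where no member was called with all libraries and no replicate block. The paired fit with the replicate block gave 1 higher and 5 lower, leaving out replicate 4 of both groups gave 4 lower, and both together, an alternative added after seeing the data, gave 1 higher and 6 lower. Without the filter on low counts 1 was lower, and with DESeq2 1 was lower. Leaving out 1 library gave 0 to 1 lower, the 1 being Ldhb without S/S shControl replicate 4. The cause was not tested.

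Leaving out 1 library gave 9 to 14 higher and 4 to 5 lower after siChchd10 in S/S cells, 3 higher throughout and 14 to 16 lower in A/A cells, 4 to 6 higher and 15 to 18 lower for the difference between them, and 11 to 13 higher and 13 to 15 lower between the genotypes. For these comparisons the replicate block, in a table whose numbers do not pair the libraries, kept each count within 1.5 times. With the longest transcript as gene length, 102 of 156 isoform shares moved by more than their SD, and Hk1 came to 51.8% of the hexokinase pair in S/S siControl in place of 36.9%. Depth limits Slc2a3, Eno2, Ldhb and the A/A values of Pdk4 most.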
